A study of Homo sapiens with 4 samples.

Results

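The endoplasmic reticulum (ER) membrane complex, or EMC, is a machine of many subunits in the ER membrane. Its 10 subunit genes EMC1, EMC2, EMC3, EMC4, EMC6, EMC7, EMC8, EMC9, EMC10 and MMGT1 (which encodes EMC5) were followed here in 2 human lung cancer lines. The members are every probe set that the platform annotation assigns to exactly 1 of these genes, 21 of the 54675 probe sets on the array and 10 of 19775 genes. Of the 21 probe sets, 19 had a mean signal over the 4 arrays at or above the minimum of 78.1, and every one of the 10 genes kept at least 1. The family was chosen by the signals of EMC6, which had been seen to be higher with hMOF siRNA in both lines. The siRNA values of the members are therefore a description, and no p-value is given for them.

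Total RNA came from A549, a lung adenocarcinoma line, and from H1299, another non-small cell lung cancer line. Both lines grew in medium with 10% serum. Each was transfected by lipofection with a scramble siRNA or with an siRNA against hMOF, the histone H4 acetyltransferase encoded by KAT8. The 4 groups are A549 with scramble, A549 with hMOF siRNA, H1299 with scramble and H1299 with hMOF siRNA, and each has 1 array. The transfected cultures are whole populations of a single line, and fewer expressing cells cannot be told apart from less RNA per cell. Groups follow the source name of each array, since the treatment tag contradicts it on 2 of the 4 arrays. KAT8, the targeted gene, fell from 402 to 106 in A549 and from 241 to 61.8 in H1299 (limma adjusted p = 0.0288), so its signal followed the source names.

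Array medians lay between 73.3 and 75.3. Log2 signals of the arrays of 1 line correlated at r = 0.988 in A549 and 0.983 in H1299 across probe sets, which are not independent replicates. As signs of RNA quality, the GAPDH controls had 3'/5' ratios between 1.09 and 1.20 on the 4 arrays. Those of ACTB were higher, from 3.11 to 2.78 in A549 and from 2.89 to 2.64 in H1299 (scramble to hMOF siRNA), and their part in the values below was not tested. Of 3 epithelial marker genes, KRT18 was at 12920 and 11695 in A549 and at 3320 and 2459 in H1299 (scramble and hMOF siRNA). KRT8 was at 6024 and 5540 in A549 and at 224 and 199.8 in H1299. The marker EPCAM was at 272 and 307 in A549 and at 29.3 and 33.6 in H1299, close to the offset of 29.0 that was added to all signals. The leukocyte marker PTPRC stayed between 31.5 and 41.5. Of the endothelial markers, PECAM1 was at 205 and 224 in A549 and at 220 and 205 in H1299. CDH5 stayed between 32.25 and 52.47, below the signal minimum. Among alveolar type II markers, SFTPB was at 798 and 722 in A549 and at 760 and 702 in H1299. SFTPC was at 112 and 120 in A549 and at 113 and 110 in H1299, and NKX2-1 lay below the signal minimum. The collagen gene COL1A1, a fibroblast marker, was at 541 and 1191 in A549 and at 7.97 and 7.89 in H1299, and its part in the values below was not tested. The other fibroblast marker, COL3A1, was at 49.2 and 60.5 in A549 and at 52.5 and 45.8 in H1299, below the signal minimum.

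The EMC inserts and folds membrane proteins at the ER. It places tail-anchored proteins and the first membrane-spanning segment of many multipass proteins, such as G protein-coupled receptors. EMC3, a relative of the bacterial YidC insertase, and EMC6 form the insertase core in the membrane, with MMGT1 beside them. EMC2 is a cytosolic scaffold that binds either EMC8 or its paralog EMC9, which replace each other in the complex. EMC1, EMC7 and EMC10 reach into the lumen, and EMC4 lines the cytosolic side of the insertion path.

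Promoter sequences help to place these genes beside their neighbours. RefSeq's promoter table for GRCh38.p14 held 8 of the 10 members, all but EMC2 and MMGT1. The 250 bases before the start of 4 members are printed 5′ to 3′ on the strand of the gene. EMC6 is shown as the member with the largest siRNA ratio and EMC10 as the member with the largest difference between lines. The paralogs EMC8 and EMC9 are shown because they stood on opposite sides between the lines. Capitals mark 4 motifs on either strand, which are the CCAAT box, the GC box (GGGCGG), the cAMP response element (TGACGTCA) and an E-box (CACGTG). The EMC6 stretch lies at chr17:3668562-3668811 on the plus strand, EMC10 at chr19:50476257-50476506 on the plus strand, EMC8 at chr16:85799545-85799794 on the minus strand, and EMC9 at chr14:24141592-24141841 on the minus strand.
EMC6: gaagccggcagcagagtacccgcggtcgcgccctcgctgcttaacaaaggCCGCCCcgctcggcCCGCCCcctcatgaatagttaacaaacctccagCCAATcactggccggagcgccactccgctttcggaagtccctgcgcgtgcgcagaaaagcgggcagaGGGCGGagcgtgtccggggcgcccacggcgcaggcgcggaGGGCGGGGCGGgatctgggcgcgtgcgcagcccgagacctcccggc
EMC10: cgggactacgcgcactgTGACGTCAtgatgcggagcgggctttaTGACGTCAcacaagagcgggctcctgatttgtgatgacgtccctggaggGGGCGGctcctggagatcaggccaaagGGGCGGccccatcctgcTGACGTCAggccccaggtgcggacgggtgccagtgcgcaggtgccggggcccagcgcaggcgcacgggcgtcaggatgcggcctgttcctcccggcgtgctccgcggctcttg
EMC8: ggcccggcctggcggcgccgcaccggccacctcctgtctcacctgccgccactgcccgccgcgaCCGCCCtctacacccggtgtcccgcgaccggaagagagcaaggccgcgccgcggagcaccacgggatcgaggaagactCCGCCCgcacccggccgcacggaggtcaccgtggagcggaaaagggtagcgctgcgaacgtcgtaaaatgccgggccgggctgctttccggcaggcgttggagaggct
EMC9: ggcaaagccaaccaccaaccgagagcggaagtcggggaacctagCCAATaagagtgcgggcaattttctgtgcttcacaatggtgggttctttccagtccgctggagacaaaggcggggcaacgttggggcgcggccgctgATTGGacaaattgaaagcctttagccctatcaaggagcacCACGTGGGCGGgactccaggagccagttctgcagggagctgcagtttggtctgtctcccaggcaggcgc

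Each motif was searched on both strands in these 250 bases, and a match is a description of the letters only. The GC box lay before 6 of the 8 members searched (EMC3, EMC4, EMC6, EMC8, EMC9 and EMC10) and in 42.3% of 27305 promoters. Before EMC6 it had 5 matches, of which the last 2 overlap by a base. CCAAT was found before EMC6 and 4 other members (EMC1, EMC4, EMC7 and EMC9), and in 33.0% of promoters. The cAMP response element occurred 3 times before EMC10 and before no other member searched, and 1.77% of promoters held it. The E-box was present before EMC9, where it overlaps the GC box by a base, and in 6.49% of promoters. The ETS letters CCGGAAG lay before EMC4, EMC7 and EMC8 (8.82% of promoters).

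The first comparison set hMOF siRNA against scramble within each line. EMC6 was the member with a large change, and the other 9 stayed within 2-fold in both lines. All ratios are log2 of signal plus 29.0, hMOF siRNA over scramble, which understates the change of dim genes. Signals of different probe sets are not set against each other, since each binds with its own strength.

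**Figure D1:**
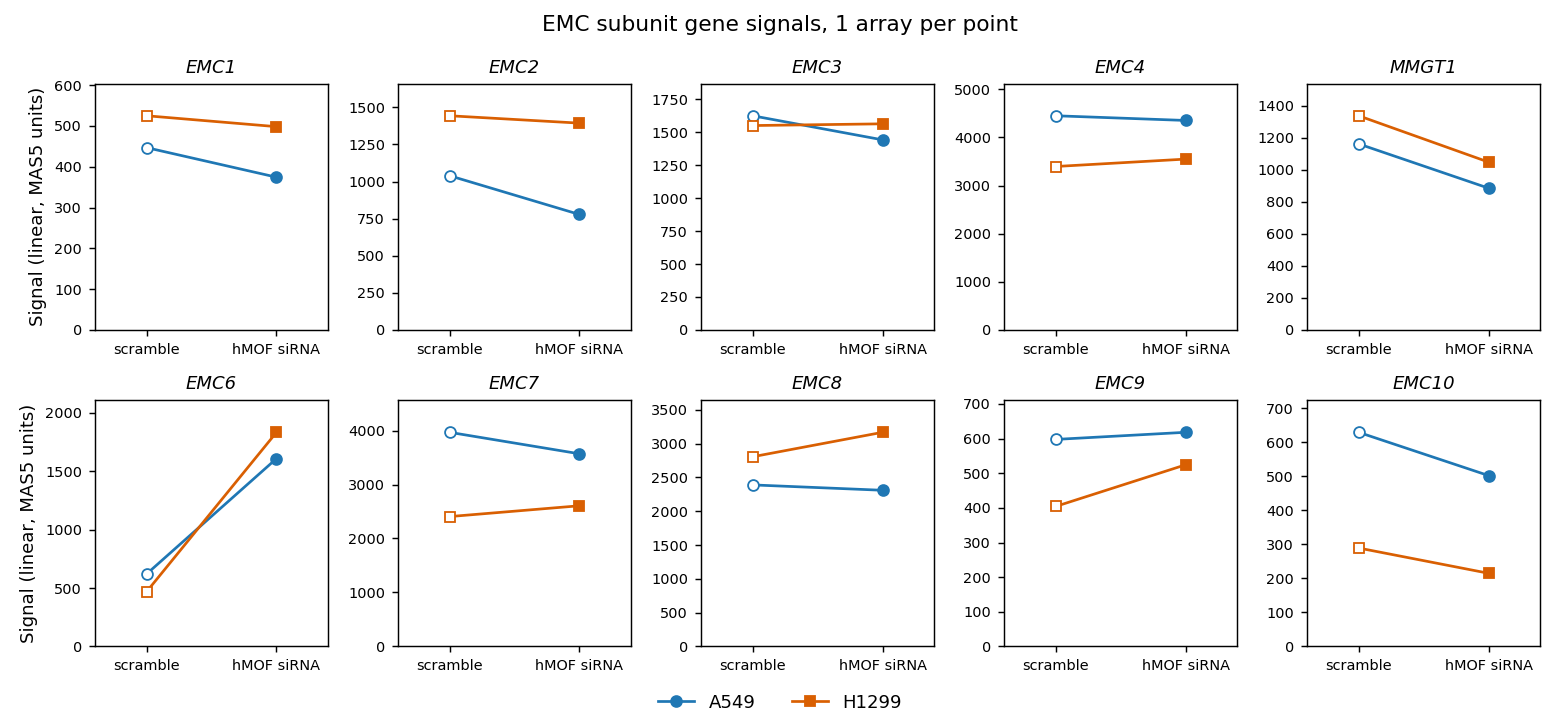
Signal of each EMC subunit gene (linear MAS5 units, axes from 0) with scramble and hMOF siRNA, for the probe set that represents the gene; circles are A549 and squares H1299, each point is 1 array, and open points are scramble. EMC6 goes from 620.1 to 1608 in A549 and from 468 to 1833 in H1299. EMC1, EMC2, EMC10 and MMGT1 are lower with hMOF siRNA in both lines, 4 of 10 members beside 36.7% of all genes.

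The insertase core subunits differed most among themselves. EMC6 read 620.1 on the A549 scramble array and 1608 on the A549 hMOF siRNA array. The H1299 arrays read 468 and 1833 in the same order. Both hMOF siRNA arrays thus lay above both scramble arrays, and the line with the lower scramble signal had the higher hMOF siRNA signal. The hMOF siRNA signal was 259% of scramble in A549 and 391% in H1299. The log2 ratios of EMC6 were 1.33 and 1.90 (mean 1.62 ± 0.40, SD, n = 2 lines). From the top of the 12830 genes analysed, EMC6 ranked 28 in A549 and 11 in H1299. EMC6 has 1 probe set, 221255_s_at, so no other probe set could be set beside it.

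EMC3, the other subunit of the insertase core, had signals of 1625 and 1442 in A549 and of 1551 and 1564 in H1299. Its log2 ratio was −0.17 in A549 and 0.01 in H1299, and when its kept probe sets were averaged the H1299 value was −0.0025. MMGT1 was at 1161 and 884 in A549 and at 1336 and 1047 in H1299. Its log2 ratios were −0.38 and −0.34, with a mean of −0.36 ± 0.03 (SD, n = 2 lines), the smallest spread between the lines of the 10 members. In both lines the hMOF siRNA signal of MMGT1 was lower, a direction that 36.7% of all genes had in both lines.

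Among the cytosolic subunits, the scaffold gene EMC2 was at 1039 and 778 in A549 and at 1444 and 1394 in H1299. Its log2 ratio was −0.40 in A549, the lowest of any member there, and −0.05 in H1299. EMC8 had signals of 2390.5 and 2311 in A549 and of 2807 and 3169 in H1299, with log2 ratios of −0.05 and 0.17. EMC9, the paralog of EMC8, was at 597 and 618 in A549 and at 404 and 524 in H1299, with log2 ratios of 0.05 and 0.35. After EMC6, EMC9 had the highest ratio of the members in each line, and its H1299 ratio corresponds to 1.28-fold of signal plus offset.

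Of the subunits that reach the lumen, EMC10 had the lowest mean ratio over both lines. The A549 arrays gave 629 and 502 and the H1299 arrays 289 and 215, with log2 ratios of −0.31 and −0.38 (mean −0.35 ± 0.05, SD, n = 2 lines). All 4 values separate first by line and then by siRNA. EMC7 was at 3967 and 3569 in A549 and at 2406 and 2606 in H1299, which gave −0.15 and 0.11. EMC1, the largest subunit, was at 447 and 374 in A549 and at 525 and 498 in H1299, with −0.24 and −0.07. EMC4 was at 4449 and 4352 in A549 and at 3395 and 3549 in H1299, with −0.03 and 0.06. After quantile normalization the A549 ratio of EMC4 turned to 0.02 and the H1299 ratio of EMC1 to 0.0028, so these small values have no settled direction.

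**Figure D2:**
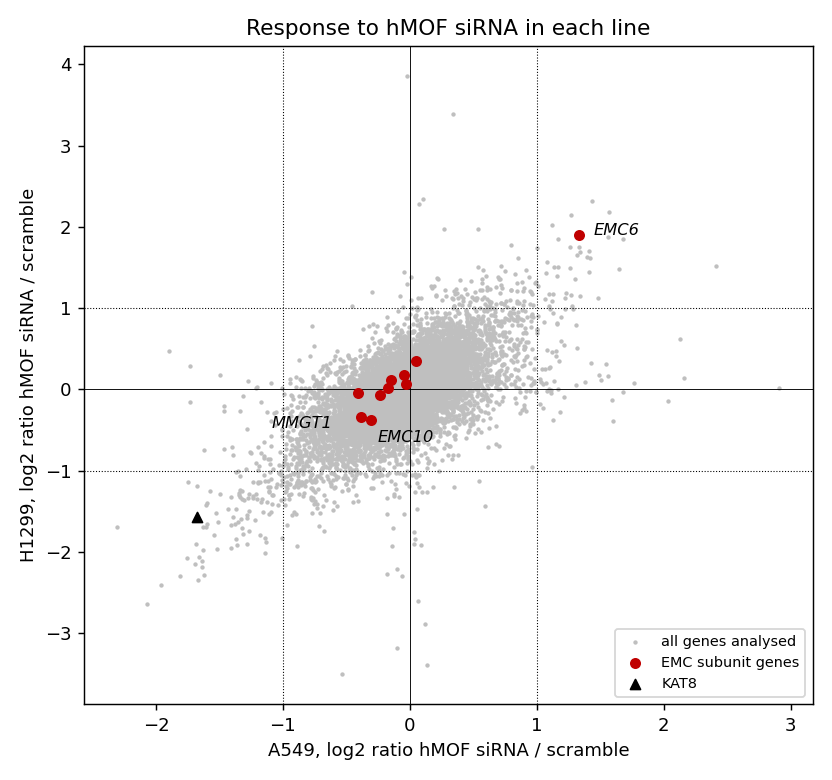
Log2 ratio of hMOF siRNA to scramble in A549 (horizontal) and H1299 (vertical) for the 12830 genes analysed (grey), the 10 EMC subunit genes (red) and KAT8 (triangle); dotted lines mark 2-fold. EMC6, at 1.33 and 1.90, is the member past 2-fold in both lines, and the other 9 lie within 2-fold in each line.

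Counted by size, 1 of the 10 members, EMC6, was at least 2-fold higher in A549, where 0.717% of all genes were. In H1299 it was again 1 of 10, against 1.22% of all genes, and in both lines together 1 of 10, against 0.288%. No member was at least 2-fold lower in A549 (1.14% of all genes), in H1299 (2.21%) or in both (0.779%). Each line gives 1 array against 1 array, so these are counts by size with no test.

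Limma over all 4 arrays, with cell line as a block, called 1 member higher (1.16% of all genes) and 0 lower (2.41%) at an adjusted p threshold of 0.05. At an unadjusted p under 0.05 limma counted 1 of the 10 members higher and 2 lower, beside 23.8% of all genes in either direction. Nothing is read from these counts, because the siRNA values of EMC6 led to the choice of the family. Without the block limma called 0 members higher, and 0% of all genes.

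The median log2 ratio of the 10 members was −0.16 in A549 and 0.04 in H1299, beside −0.02 and −0.01 over all 12830 genes. Without EMC6 the members ran from −0.40 to 0.05 in A549 and from −0.38 to 0.35 in H1299. Their median absolute log2 ratio was then 0.17 in A549 and 0.11 in H1299, beside 0.17 and 0.20 over all genes. The H1299 ratio was above the A549 ratio for every member except EMC10. With averaged probe sets EMC10 had this order too, at −0.15 in A549 and −0.11 in H1299. The share of all genes with this order was not counted, so nothing is read from it.

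Probe sets of 1 gene differed most for EMC10, and those of EMC7 also differed in sign. The represented EMC10 probe set 224727_at had a mean log2 ratio of −0.35, whereas the dimmer 222345_at, at 104, 105, 112 and 130 on the 4 arrays, had 0.09. Their average was −0.13. The 5 EMC1 probe sets had means between −0.28 and −0.01, and the 1 of them below the signal minimum, 215991_s_at, was at 37.8 to 46.5. The 3 EMC3 probe sets ran from −0.16 to −0.08, with 215250_at below the minimum. EMC8 had 3 probe sets between 0.04 and 0.06 and EMC4 had 2 at 0.02. The EMC7 probe sets stood at −0.02 and 0.11. EMC2, EMC6, EMC9 and MMGT1 have 1 probe set each.

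**Figure D3:**
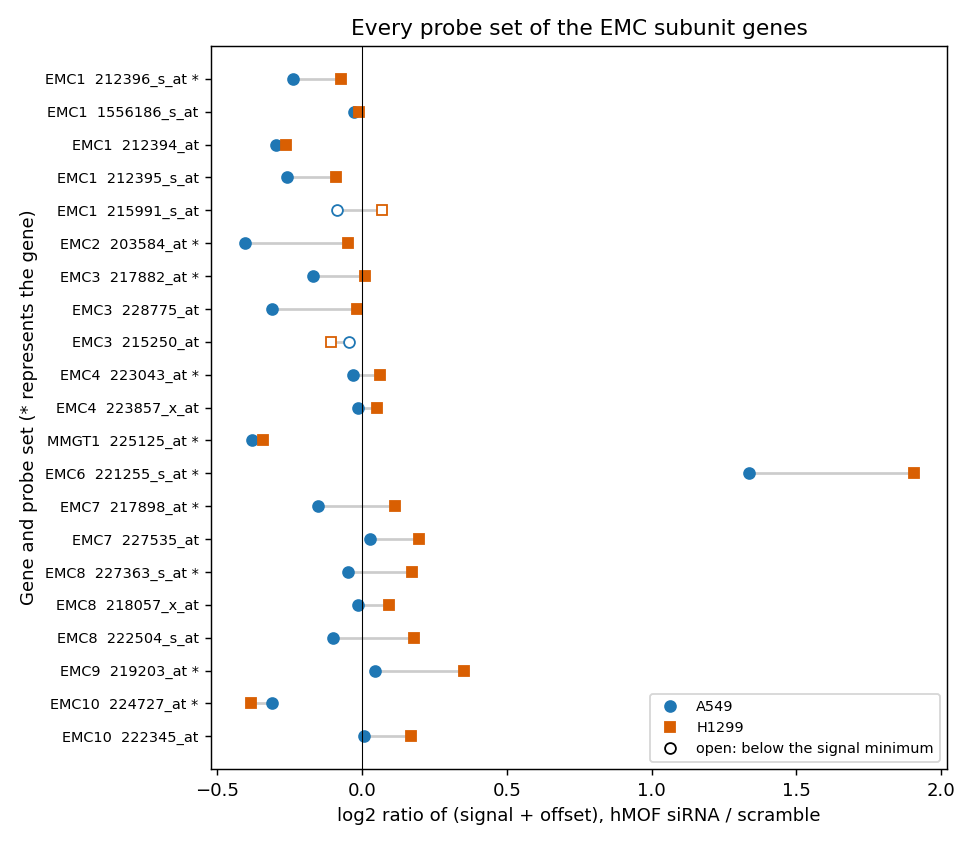
Log2 ratio of signal plus offset, hMOF siRNA over scramble, for each of the 21 probe sets of the EMC subunit genes; circles are A549, squares H1299, each from 1 array per siRNA, open symbols lie below the signal minimum, and a star marks the probe set that represents the gene. EMC6 stands at 1.33 and 1.90, and the EMC10 probe sets lie on both sides of 0.

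The genes whose pattern over the 4 arrays lay nearest to EMC6 were PSMC3, ZNF664, ZCCHC3, R3HCC1 and MED11. Likeness was the Euclidean distance between log2 values centred on each gene's mean over the 4 arrays, which ranged from 0.11 to 0.22 for these 5 genes. PSMC3, an ATPase subunit of the proteasome, was at 569.8 and 1481 in A549 and at 464 and 1632 in H1299. MED11, a Mediator subunit, was at 190.5 and 619 in A549 and at 136 and 579 in H1299. ZNF664, ZCCHC3 and R3HCC1 had log2 ratios from 1.16 to 1.34 in A549 and from 1.69 to 1.85 in H1299. As with EMC6, the signal of each was lower in H1299 than in A549 with scramble, a likeness that the distance itself selects for. The ZNF664 pattern rests on its brightest probe set, since averaging its kept probe sets lowered the mean log2 ratio from 1.51 to 0.59. No other EMC subunit gene was among the 5, which follows from the others staying within 2-fold in both lines.

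The second comparison asked how the lines differ, H1299 over A549. The siRNA was a block in the fit, and the 2 siRNA arms were the repeats. These values had no part in the choice of the family. Limma called 3 of the 10 members, 1 higher and 2 lower in H1299, at an adjusted p threshold of 0.05. Over all genes 52.4% were called, 25.1% higher and 27.3% lower in H1299. With averaged probe sets 6 of the 10 members were called, beside 53.0% of all genes, and with a trend in eBayes 5 of 10, beside 53.0%. The members' share was not tested against that of all genes.

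EMC10 had the largest difference. Its A549 signals of 629 and 502 both lay above its H1299 signals of 289 and 215, and signal plus offset was 2.12-fold higher in A549 (log2 H1299 over A549 −1.09, SE 0.11; limma adjusted p = 0.00157). The other EMC10 probe set, 222345_at, gave 0.17, so the direction holds for 224727_at only, and the average of both was −0.46 and still passed (limma adjusted p = 0.0149). EMC7 was also lower in H1299, at 2406 and 2606 against 3967 and 3569, or −0.58 (SE 0.12; limma adjusted p = 0.0153). Its probe set 227535_at gave −0.21. EMC2 was higher in H1299, at 1444 and 1394 against 1039 and 778, or 0.64 (SE 0.13; limma adjusted p = 0.0151). EMC2 was at 0.46 between the scramble arrays and at 0.82 between the hMOF siRNA arrays. Without the siRNA block its adjusted p was 0.0564, which ends the call.

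**Figure D4:**
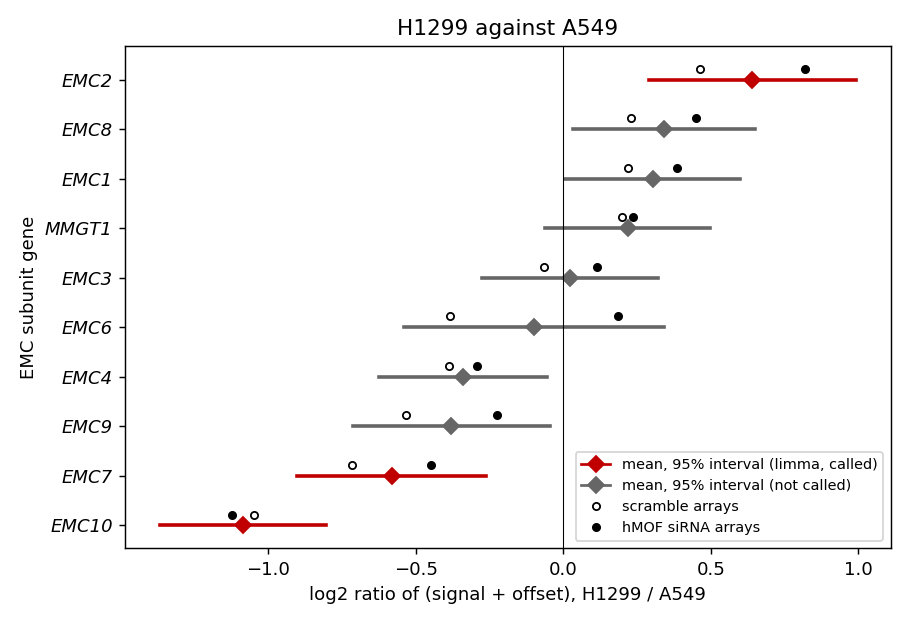
Log2 ratio of signal plus offset, H1299 over A549, for the 10 EMC subunit genes; diamonds are means over the 2 siRNA arms, bars are limma's 95% intervals with siRNA as a block, and circles are the differences between the scramble arrays (open) and the hMOF siRNA arrays (filled). EMC10 and EMC7 (red, called) lie below 0 and EMC2 above, and the EMC6 circles fall on both sides of 0.

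The other 7 members did not pass. EMC4 was at −0.34 (limma adjusted p = 0.0527), EMC9 at −0.38 (0.0608) and EMC8 at 0.34 (0.0663), each with both siRNA arms on 1 side. For EMC8 and EMC9 the paralogs thus stood on opposite sides of 0, and the difference between them was not tested. EMC4 passed with a larger offset, with averaged probe sets and with a trend in eBayes, and its 223857_x_at gave −0.54. EMC8 passed after quantile normalization, with averaged probe sets and with a trend, and EMC9 with averaged probe sets. EMC1 was at 0.30 (limma adjusted p = 0.0806) and MMGT1 at 0.22 (0.153). With averaged probe sets EMC1 was at 0.19 (limma adjusted p = 0.187), and its probe set 1556186_s_at gave 0.01.

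EMC3 and EMC6 were nearest to 0. EMC3 was at 0.02 with a 95% interval of ±0.30, and at −0.11 when its probe sets were averaged. EMC6 was at −0.10 with an interval of ±0.44 (limma adjusted p = 0.656). That mean joins −0.38 between the scramble arrays and 0.19 between the hMOF siRNA arrays, so the order of the lines differed between the siRNA arms. The wide intervals do not show that the lines were alike.

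Neighbouring genes were examined for all members in RefSeq's order for GRCh38.p14. Of the 20 genes next to a member in order of start, which include pseudogenes inside a member, 7 were analysed here, and none was 2-fold in both lines. PSME1, a subunit of the proteasome activator PA28 and the neighbour of EMC9, fell with hMOF siRNA, from 4209 to 2494 in A549 and from 2826 to 1268 in H1299 (log2 −0.75 and −1.14; limma adjusted p = 0.0455). The call on PSME1 was lost with no signal filter (limma adjusted p = 0.0516). EMC9 itself was at 0.05 and 0.35. P2RX5, an ATP-gated channel gene next to EMC6, was at 314 and 336 in A549 and at 1272 and 1197 in H1299, or 0.09 and −0.09. The 6 others of the 7 ran from −0.28 to 0.21. Genes that start head to head with a member need not be next in this order.

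The starts of 4 members lie head to head with another gene within 1000 bases, a feature looked for after the values had been seen. EMC6 starts 234 bases from TAX1BP3, which was not analysed here because no probe set is assigned to it alone. EMC8 starts 151 bases from COX4I1, a cytochrome c oxidase subunit gene with log2 ratios of −0.09 and −0.07, beside −0.05 and 0.17 for EMC8. EMC1 and MRTO4, a ribosome assembly factor gene, start 281 bases apart, and MRTO4 was at −0.03 and 0.21. EMC7 and the transposase-derived gene PGBD4 start 221 bases apart, and PGBD4 was at 0.03 and 0.50. EMC7 and EMC4 lie on chromosome 15 with 2 genes between them, PGBD4 and KATNBL1.

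Other routes of membrane insertion were set beside the EMC as 6 lists with 48 of 54 genes analysed. Of these 48 genes, limma called 1 higher and 0 lower with hMOF siRNA, 47 did not pass, and 11 (22.9%) had an unadjusted p under 0.05, beside 23.8% of all genes. The called gene was SRP19, a protein of the signal recognition particle that brings ribosomes to the ER. SRP19 rose from 1457 to 2337 in A549 and from 1452 to 2749 in H1299 (log2 0.67 and 0.91; SE 0.12; limma adjusted p = 0.0468). The call was lost with no signal filter (limma adjusted p = 0.0514).

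The signal recognition particle and its receptor had 1 of 8 genes called higher, none lower, and medians of −0.08 in A549 and −0.05 in H1299. The SEC61 channel and its partners, the main gate into the ER, had 0 of 10 called, with ratios between −0.70 and 0.27 and medians of −0.13 and −0.03. The multipass translocon, which works behind the SEC61 channel, had 0 of 5 called and medians of −0.08 and 0.25. The GET pathway, which also inserts tail-anchored proteins, had 0 of 6 called and medians of −0.08 and −0.02. Signal peptidase and the oligosaccharyltransferase, which cut and glycosylate entering proteins, had 0 of 17 called, medians of 0.04 and 0.07 and a highest ratio of 0.87. Of the proteins that the EMC is known to insert, SOAT1 and ADRB1 were analysed and 0 of 2 were called. The counts of called genes stand beside 3.57% of all genes called in either direction. At an unadjusted p under 0.05 the 6 lists had 5, 2, 0, 1, 3 and 0 genes in this order, beside 23.8% of all genes.

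**Figure D5:**
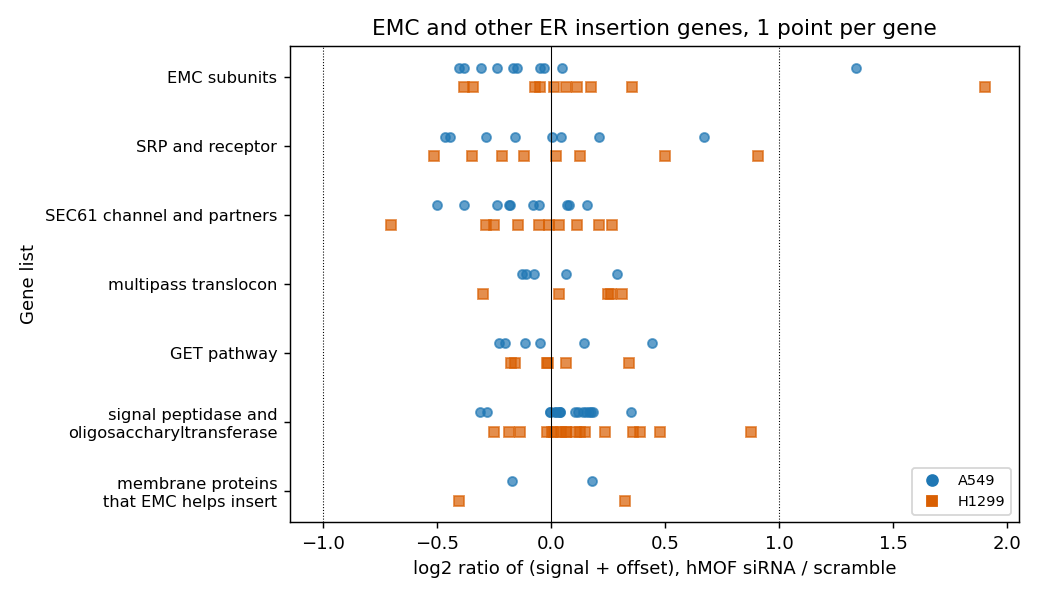
Log2 ratio of signal plus offset, hMOF siRNA over scramble, for the 10 EMC subunit genes and for 6 lists of other ER insertion genes (48 genes); each point is 1 gene, circles are A549 and squares H1299, and dotted lines mark 2-fold. EMC6, at 1.33 and 1.90, lies to the right of all genes of the 6 lists, whose ratios lie within 2-fold.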

How the data were processed

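Total RNA (6 ug per sample) was labelled with biotin and hybridised to Affymetrix arrays, per the labels. The deposited table holds 1 signal intensity per probe set and array, on a linear scale. The authors used MAS5, per the submitters' processing notes. The version and scaling target are not stated there, and detection calls were not used. MAS5 varies most at low signal.

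Genes were named through the platform annotation, with symbols looked up in RefSeq's table for GRCh38.p14 (54 of 41091 single-gene probe sets had no match and kept their name). The offset was the 20th percentile of all signals (29.0) and the signal minimum the 50th percentile of probe set means (78.1). The brightest kept probe set by mean stood for its gene, which left 12830 genes. No further normalization was applied.

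All 4 arrays entered 1 limma 3.58.1 fit (lmFit and eBayes in R 4.3.3) on line and siRNA, with Benjamini-Hochberg adjustment over all 12830 genes. The fit has 1 residual degree of freedom and 3.74 prior ones. No group was replicated, so its p-values reflect the spread among these 4 arrays alone, and the number of arrays limits the precision. The fit was also run on simulated data with the same noise for all genes and the same effects in both lines. That setting differs from these arrays, so it does not give their error rate. The members, lists and tests were chosen with earlier results of these data known. The text names KAT8, all members, their neighbours, the 5 genes nearest EMC6 and list genes that limma called. Alternatives changed the offset, the filter, the scaling and the probe set rule, with eBayes with trend, and no block. Figures used matplotlib 3.10.9.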

Additional observations from a re-analysis of the deposited data

Results flagged for a closer look

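For 4 members the log2 ratio of hMOF siRNA to scramble lay below 0 in A549 and above 0 in H1299, and the difference between the lines was not tested, since each line has 1 array per siRNA. The H1299 minus A549 difference was 0.27 for EMC7, 0.22 for EMC8, 0.18 for EMC3 and 0.10 for EMC4. Over all genes 16.9% showed this pair of signs. The signs of EMC4 in A549 and of EMC3 in H1299 turned under 1 alternative each, quantile normalization and averaged probe sets.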

How the results depend on the processing

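With the offset, filter, scaling or probe set rule changed, EMC6 kept log2 ratios of 1.30 to 1.38 in A549 and of 1.85 to 1.97 in H1299. The counts of members called between lines, 1 higher and 2 lower in H1299, moved in places. Members higher in H1299 numbered 2 after quantile normalization, with averaged probe sets and with a trend in eBayes, and 0 without the block. Members lower in H1299 numbered 4 with averaged probe sets and 0 when every kept probe set of a gene had to pass on its own. For hMOF siRNA, 0 members were called higher without the block for cell line. EMC3 turned from 0.02 to −0.11 between lines when its probe sets were averaged. The mean siRNA ratio of EMC10 moved from −0.35 to −0.28 after quantile normalization and to −0.13 with averaged probe sets, and that of MMGT1 from −0.36 to −0.32 after quantile normalization. Leaving out an array was not run for the counts, since it leaves no residual degree of freedom, and the effect is then the single ratio of the other line or siRNA arm, given above. The pairing used was that of arrays of 1 line, or of 1 siRNA, as the block of the fit, since the labels give no replicate numbers. Signal over background could not be judged without detection calls, and 2 of the 21 member probe sets lay below the signal minimum.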
